A study of Arabidopsis thaliana with 14 samples.

Results

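Early senescent leaves of hda9 plants were compared directly with early senescent leaves of pwr plants, without a wild type between them. The comparison holds 4 of the 14 samples of the series, 2 RNA-seq libraries of hda9 and 2 of pwr, and they were picked by genotype and stage as the labels give them. Of the 33278 genes in the table of early senescent leaves, the 18035 whose FPKM averaged 1 or more over these 4 libraries were tested. FPKM is the number of sequenced fragments scaled by transcript length and by the size of the library.

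The study asked how HDA9 and PWR act in leaf aging of Arabidopsis thaliana, and it set each mutant against the wild type (WT). hda9 carries the T-DNA insertion SALK_007123 and pwr carries the T-DNA insertion SALK_071811C, so each genotype is 1 insertion line, and both are in the Col-0 background. Plants were grown on soil under continuous light, and the methods give 2 biological replicates for each genotype. Gene names are written in capitals (HDA9, PWR) and mutants in lower case (hda9, pwr).

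HDA9 is a histone deacetylase of the RPD3 type, an enzyme that removes acetyl groups from lysines of histone tails, and acetylated histones are typical of transcribed genes. PWR (POWERDRESS) is a nuclear protein with SANT domains, and proteins with such domains are known in animals as partners of class I deacetylases. During leaf senescence a leaf degrades its chlorophyll and chloroplast proteins and exports the nutrients, and jasmonate, ethylene, abscisic acid and salicylic acid are known to take part in its timing.

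Before any gene is described, the 4 libraries have to be described, because replicates differed about as much as genotypes did. Over the genes tested, Pearson's r of log2(FPKM + 1) was 0.89 between the hda9 libraries and 0.93 between the pwr libraries, and between 0.90 and 0.91 across genotypes. The hda9 libraries stood at least 2-fold apart (on FPKM + 1) at 3489 genes, which is 19.3% of those tested, and the pwr libraries at 1459 genes or 8.09%. The 4 pairs of an hda9 and a pwr library stood that far apart at 2210 to 3082 genes. In hda9 replicate 2 and both pwr libraries, low FPKM values fell on shared steps, as whole reads give, and in hda9 replicate 1 they did not. Between 17.2% and 19.7% of genes under 1 FPKM had a single common ratio within the first 3 libraries, against at most 0.21% with hda9 replicate 1. Of the WT libraries, replicate 2 shared these steps and replicate 1 did not. The labels name no batch, and how hda9 replicate 1 and WT replicate 1 came to differ was not tested. The main results are therefore given also for hda9 replicate 2 against both pwr libraries, which is called the comparison within the set with steps. There hda9 has 1 library, whose spread is taken to be that of the pwr libraries.

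The defining markers of the leaf were high in every library, and those of flower and seed were low. The 44 photosynthesis genes of the nucleus summed to 61969 and 22918 FPKM in hda9 and to 55754 and 55392 FPKM in pwr. The 6 flower markers (AG, AP3, PI and SEP1 to SEP3) summed to at most 3.26 FPKM in a library of hda9 or pwr, and the 8 seed markers to at most 0.23 FPKM. Chloroplast and mitochondrial genes were not analysed here.

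At an unadjusted p under 0.05 in limma, the threshold used by the study, 475 genes (2.63% of those tested) were higher in hda9 than in pwr and 454 genes (2.52%) were lower. Together they make 5.15% of the genes tested, near the 5% that this threshold passes by itself. After Benjamini-Hochberg adjustment 1 gene was higher (0.00554%) and 5 genes were lower (0.0277%). In the text a gene is called higher or lower at the unadjusted threshold, and no gene named below has an adjusted p under 0.05 in limma unless it is said to. Within the set with steps 992 genes (5.5%) were higher and 1169 genes (6.48%) were lower at an unadjusted p under 0.05. No gene reached an adjusted p of 0.05 there, and the smallest was 0.11.

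A gene was counted as separated when both hda9 libraries stood at least 2-fold above both pwr libraries, or both at least 2-fold below them, on FPKM + 1. This held for 135 genes on the higher side (0.749% of those tested) and for 154 genes on the lower side (0.854%), together 1.6%. All 135 of the first and 153 of the second were also called. The 154 had a median of 0.65 FPKM in hda9, so many of them passed the filter only through pwr and had to be lower in hda9. Of the 82 genes described from lists or by the naming rule, 72 were called, and 42 of these were called in each of the 4 fits that leave out a library. Of the 72, 9 lost their call without hda9 replicate 1, 9 without hda9 replicate 2, 24 without pwr replicate 1 and 21 without pwr replicate 2. The direction of the 72 was the same in those fits. The separated genes are the coloured points of the plot of difference against level.

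**Figure D1:**
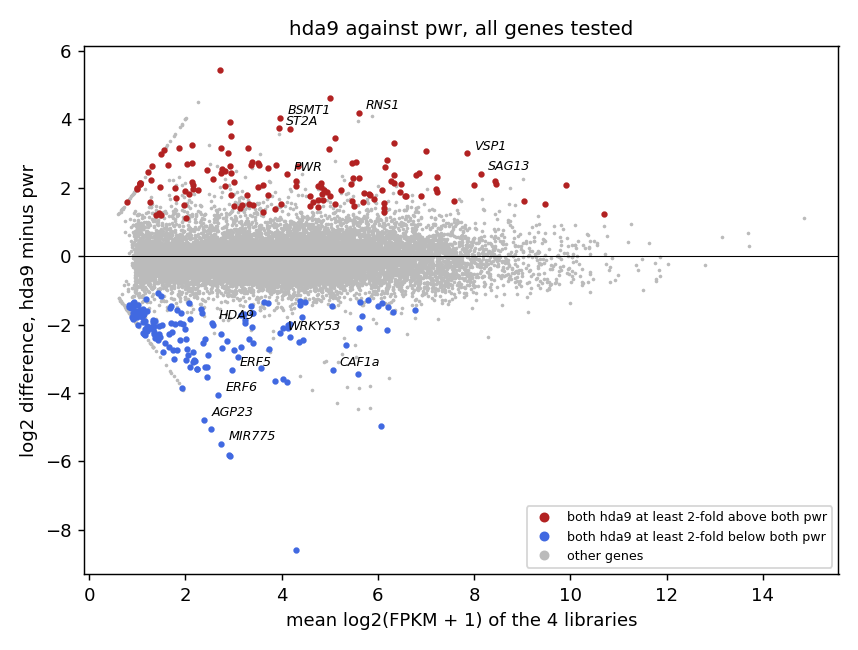
Difference between hda9 and pwr (log2 scale) against the mean log2(FPKM + 1) of the 4 libraries, with 1 point per gene tested. Red points are the 135 genes with both hda9 libraries at least 2-fold above both pwr libraries, blue points the 154 genes at least 2-fold below them, and grey points all others. Blue points gather at low levels, while red points spread to higher levels.

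HDA9 itself was measured first, as a check of the labels. Its FPKM was 1.12 and 3.21 in hda9, against 11.3 and 9.71 in pwr, and 5.94 and 11.7 in WT. Both hda9 libraries lay below every other library, and HDA9 was lower in hda9 than in pwr by a log2 difference of -1.94 ± 0.42 (SE, adjusted p = 0.510 in limma). It was also lower within the set with steps, where the difference was -1.45.

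PWR had an FPKM of 28.5 and 51.5 in hda9, against 7.01 and 6.02 in pwr, and 10.2 and 17.0 in WT. The groups did not overlap, and PWR was higher in hda9 by a log2 difference of 2.39 ± 0.38 (adjusted p = 0.307 in limma). Both hda9 libraries also stood above both WT libraries, and both pwr libraries below both of them. Within the set with steps the difference was 2.81.

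WRKY53, a transcription factor that promotes senescence and that the study examined beside HDA9, was lower in hda9. It had 7.16 and 5.29 FPKM in hda9, against 51.1 and 21.5 in pwr, and 4.68 and 13.2 in WT. Its log2 difference was -2.26 ± 0.47 (adjusted p = 0.492 in limma), and -2.44 within the set with steps. The high group here was pwr, which stood above both WT libraries, while hda9 replicate 2 stood below the WT library of its own set.

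HOS15, a WD40 repeat protein of deacetylase complexes, had 9.34 and 32.8 FPKM in hda9 against 25.5 and 26.6 in pwr, and was not called. AHL22, an AT-hook protein, had 0.069 FPKM in pwr replicate 1, was listed at 0 in the other 3 libraries and was not tested. Of 17 further deacetylase genes, 13 were tested, with a median difference of -0.22. By limma 0 were called in either direction, at an unadjusted or an adjusted p. With replicate number as a block in the fit, 1 was called lower. The median was -0.002 without hda9 replicate 1 and -0.51 without hda9 replicate 2. HDA10 and HDA17, which resemble parts of HDA9, had at most 0.24 FPKM in any of the 4 libraries.

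**Figure D2:**
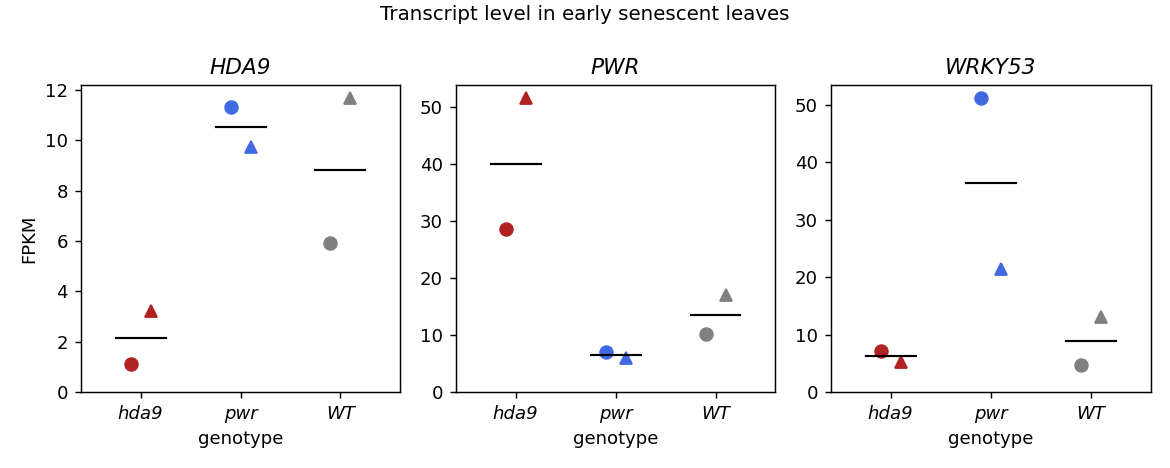
FPKM of HDA9, PWR and WRKY53 in early senescent leaves of hda9, pwr and WT. Circles are replicate 1, triangles replicate 2 and lines the means of 2 libraries. HDA9 is lowest in hda9, PWR is lowest in pwr and highest in hda9, and WRKY53 is highest in pwr.

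The next question was whether leaves collected under the same stage name had the same level of senescence transcripts. Of 18 senescence markers tested, 9 were called higher in hda9 and 0 lower, which is 50% of the list against 2.63% of all genes. All 18 had a positive difference, with a median of 1.38 on the log2 scale against -0.08 for all genes tested. The 18 summed to 4045 and 8473 FPKM in hda9, 2487 and 2022 in pwr, and 1986 and 4372 in WT. The WT libraries thus spanned both pwr libraries and hda9 replicate 1. At 12 markers the hda9 and pwr values did not overlap with hda9 above, as at 14.4% of all genes, and 4 of them (SAG13, SAG14, SEN4 and NYE2) were separated. In bulk leaves, fewer cells in which a gene is active and less of its RNA per cell cannot be told apart.

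SAG13, a short-chain dehydrogenase and classical marker of early senescence, had 506 and 836 FPKM in hda9 against 174 and 84.8 in pwr. Its log2 difference was 2.41 ± 0.50 (adjusted p = 0.491 in limma). SAG14, which encodes a blue copper protein, had 429 and 1227 FPKM in hda9 against 176 and 159.6 in pwr, a difference of 2.11 ± 0.57 (adjusted p = 0.734). SEN4, a xyloglucan endotransglucosylase of the cell wall, had 724 and 748 FPKM in hda9 against 249 and 103 in pwr. Its difference was 2.19 ± 0.51 (adjusted p = 0.581 in limma). In WT SAG13 had 119 and 374 FPKM, SAG14 had 50.4 and 188, and SEN4 had 373 and 673. Both hda9 libraries stood above both WT libraries at these genes, but not at NYE2. The pwr libraries overlapped WT at SAG13 and SAG14 and lay below both WT libraries at SEN4.

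The enzymes of chlorophyll breakdown were among the 9. NYE1 and NYE2 are the STAY-GREEN proteins that start the breakdown of chlorophyll a. NYE1 had 126 and 256 FPKM in hda9 against 57.3 and 77.8 in pwr. NYE2 had 49.5 and 158 FPKM in hda9 against 17.3 and 22.9 in pwr, so that in both genes the groups were apart and hda9 replicate 2 was the highest library. NYC1, a reductase of chlorophyll b, had 342 and 769.5 FPKM in hda9 against 123 and 210.4 in pwr. PAO, which opens the ring of pheophorbide, had 154 and 298 FPKM in hda9 against 89.7 and 77.3 in pwr. In each of these 4 genes both hda9 libraries lay above both pwr libraries, with differences of 1.35 to 2.1. PPH, the pheophytinase of the same pathway, had 177 and 560.3 FPKM in hda9 against 169 and 187 in pwr and was not called.

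The called transcription factors of the list were NAC2 and WRKY6. NAC2, also known as ORE1, is a NAC factor that drives age-dependent senescence, and it had 43.5 and 128 FPKM in hda9 against 17.8 and 23.2 in pwr, a difference of 1.83. WRKY6 had 34.3 and 36.0 FPKM in hda9 against 19.8 and 19.7 in pwr, a difference of 0.80 ± 0.28 (adjusted p = 0.910) with close replicates.

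The size of the senescence difference depended on the hda9 library. The list median was 1.87 and 2.17 for hda9 replicate 2 minus each pwr library, but 0.72 and 0.69 for hda9 replicate 1. Within the set with steps 16 of the 18 markers were called higher. Without hda9 replicate 2, 7 were called and 14 of 18 lay above pwr. In the fit of the 3 genotypes 3 markers were called (SAG13, SAG14 and SEN4), while NYE1, NYE2, NYC1, PAO, NAC2 and WRKY6 were not. SAG12, the cysteine protease gene that marks late senescence, was not called, with 0.64 and 10.9 FPKM in hda9 against 0.077 and 0.64 in pwr. Without pwr replicate 1 the count was 3, and without pwr replicate 2 it was 1, in fits whose spread comes from the hda9 pair alone.

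**Figure D3:**
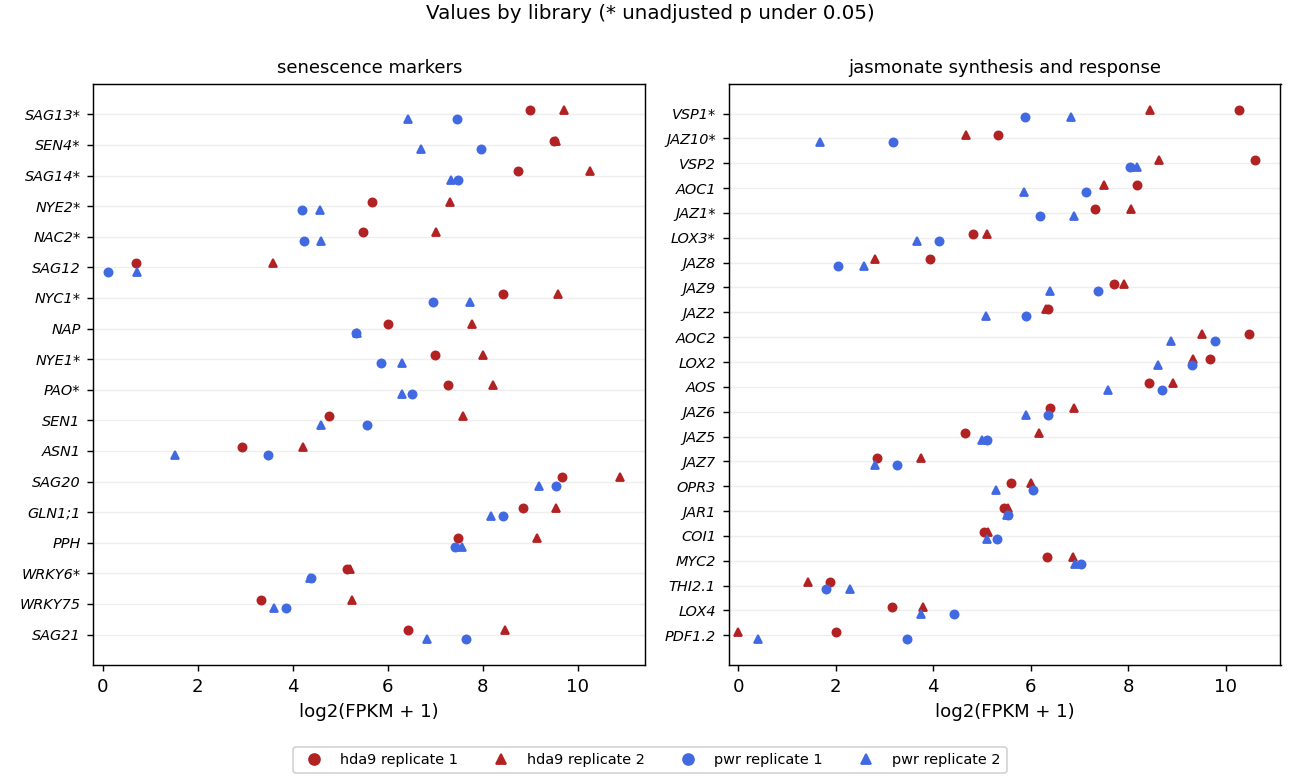
log2(FPKM + 1) of the 18 senescence markers and 22 jasmonate genes, ordered by their difference, in the 4 libraries (red hda9, blue pwr, circles replicate 1, triangles replicate 2, asterisks for an unadjusted p under 0.05). Senescence markers lie further right in hda9 replicate 2 than in hda9 replicate 1 for most genes.

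The 44 photosynthesis genes moved with the same library. In the fit of 4 libraries 0 of the 44 were called in either direction, by limma at an unadjusted or an adjusted p, and the median difference was -0.59. The list median was -1.34 and -1.21 for hda9 replicate 2 minus each pwr library, and 0.18 and 0.29 for hda9 replicate 1. Within the set with steps 31 genes were called lower, and without hda9 replicate 2 the median was 0.25. The direction of this list thus turned with the hda9 library. RBCS1A, a small subunit gene of Rubisco, had 7163 and 1023 FPKM in hda9 against 3481 and 5833 in pwr. The Rubisco and LHCB1 genes have near-identical copies, between which the reads may be split.

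Jasmonate synthesis starts from linolenic acid in the chloroplast. The amino acid conjugate of jasmonate releases gene expression by the removal of JAZ repressors, whose own genes are induced by jasmonate. Of 22 genes of synthesis and response, 4 were called higher in hda9 (18.2%) and 0 lower, and the list median was 0.54. At 11 genes the groups did not overlap with hda9 above, as at 14.4% of all genes, and at 1 gene with hda9 below, as at 20.2%.

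LOX3 was the called gene of synthesis, a lipoxygenase with 27.2 and 33.1 FPKM in hda9 against 16.4 and 11.7 in pwr (difference 1.06). AOC1, an allene oxide cyclase gene, had 291 and 180.2 FPKM in hda9 against 139.5 and 57.3 in pwr and was not called. The other genes of synthesis (LOX2, LOX4, AOS, AOC2, OPR3 and JAR1), the receptor gene COI1, the transcription factor gene MYC2 and the defense genes PDF1.2 and THI2.1 were not called.

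Among the repressors, JAZ10 had 39.4 and 24.6 FPKM in hda9 against 8.08 and 2.21 in pwr, a log2 difference of 2.58 ± 0.57 (adjusted p = 0.525). JAZ1 had 158 and 266 FPKM in hda9 against 71.5 and 118 in pwr, a difference of 1.15. JAZ2 and JAZ5 to JAZ9 were not called. JAZ10 was not called without hda9 replicate 1, and LOX3 and JAZ1 were called only without hda9 replicate 1 among the fits that leave out a library. VSP1, a vegetative storage protein of leaves that jasmonate induces, had the largest difference of the list. It had 1235 and 349 FPKM in hda9 against 57.6 and 112 in pwr, with a log2 difference of 3.01 ± 0.70 (adjusted p = 0.581), and 2.1 within the set with steps. In WT it had 667 and 845 FPKM, so that both pwr libraries were below both WT libraries. VSP1 was not called without pwr replicate 1.

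By the naming rule, the 12 largest called differences on the higher side among the 115 protein-coding genes that were separated and above 0 in all 4 libraries were AT2G38240, RNS1, BSMT1, DXPS1, ST2A, NPC4, KTI1, JRG21, AT4G22470, TPS03, AT1G62760 and CCD8. Since the rule picked them by this difference, their values are a description. In WT, replicate 2 stood above replicate 1 at each of them. The WT values were 4.08 and 43.1 FPKM for AT2G38240, 0.43 and 24.4 for NPC4, and 2.79 and 46.7 for CCD8.

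BSMT1, a methyltransferase of salicylic and benzoic acid, had 70.5 and 55.6 FPKM in hda9 against 3.31 and 2.46 in pwr. ST2A, a sulfotransferase that acts on hydroxylated jasmonate, had 54.4 and 56.0 FPKM in hda9 against 4.68 and 2.14 in pwr. In both genes the replicates of each mutant were close, with log2 differences of 4.04 ± 0.31 and 3.73 ± 0.38 and nearly the same values within the set with steps (3.87 and 3.75). The WT replicates were not close, with 8.30 and 122.5 FPKM for BSMT1 and 7.37 and 22.7 for ST2A. For BSMT1, WT replicate 2 stood above both hda9 libraries.

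JRG21, a dioxygenase named for its response to jasmonate, had 408 and 157 FPKM in hda9 against 14.5 and 41.2 in pwr (difference 3.31). AT2G38240, annotated as a 2-oxoglutarate and iron dependent oxygenase, had 132 and 188 FPKM in hda9 against 1.57 and 15.3 in pwr (4.61). KTI1, a Kunitz trypsin inhibitor, had 172 and 73.4 FPKM in hda9 against 5.55 and 15.4 in pwr (3.45). For JRG21 and KTI1 hda9 replicate 1 was the higher of the hda9 libraries, the reverse of the senescence markers.

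Enzymes of isoprenoid metabolism were 3 of the 12. DXPS1, a 1-deoxyxylulose 5-phosphate synthase, had 36.6 and 22.4 FPKM in hda9 against 0.760 and 1.19 in pwr (3.92). TPS03, a terpene synthase, had 29.1 and 12 FPKM in hda9 against 0.073 and 3.61 in pwr (3.15), and was not called without hda9 replicate 1. CCD8, the carotenoid cleavage dioxygenase of strigolactone synthesis, had 37.0 and 232 FPKM in hda9 against 6.23 and 14.6 in pwr (3.15), and was not called without pwr replicate 1.

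RNS1 and NPC4, a secreted ribonuclease and a phospholipase C that are both known to respond to phosphate shortage, were highest in hda9 replicate 1. RNS1 had 527 and 80.8 FPKM in hda9 against 4.52 and 22.6 in pwr (4.19), and NPC4 had 80.4 and 7.34 FPKM in hda9 against 0.34 and 2.92 in pwr (3.51). Neither was called without hda9 replicate 1, at differences of 2.84 and 1.87, nor without pwr replicate 1, at 3.14 and 2.73. AT4G22470, of a lipid transfer protein family, had 25.5 and 6.02 FPKM in hda9 against 0.44 and 0.41 in pwr. AT1G62760, of a pectin methylesterase inhibitor family, had 23.3 and 34.5 FPKM in hda9 against 0.99 and 4.49 in pwr.

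A list of 17 genes that jasmonate is known to induce or that act on jasmonate was written after these values were seen, and 3 of them (VSP1, VSP2 and LOX2) are also among the 22 genes above. BSMT1, ST2A, JRG21, KTI1, RNS1 and TPS03 are also among the 12 genes picked by the naming rule, so their separation was fixed by that rule. The list is given as a description. Both hda9 libraries were above both pwr libraries at 14 of the 17 genes (14.4% of all genes tested), 10 were separated (0.749% of all), and the median difference was 2.62. CORI3, a tyrosine aminotransferase family gene, had 1353 and 1073 FPKM in hda9 against 379 and 463 in pwr. NATA1, an N-acetyltransferase, had 82.9 and 29.1 FPKM in hda9 against 10.2 and 4.96 in pwr. The exceptions were TAT3, CLH1 and TPS04, where the groups overlapped. The list medians for hda9 replicates 1 and 2 were 2.56 and 2.58 minus pwr replicate 1, and 3.27 and 1.63 minus pwr replicate 2.

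The upstream sequences of 4 genes that were high in hda9 are shown, with and without ACGTG, the core of the abscisic acid response element (ABRE) to which bZIP factors bind, since this core was counted upstream of all separated genes. They are the 250 bases before the annotated start of BSMT1, VSP1, SAG13 and ST2A, read 5′ to 3′ along the gene from RefSeq's TAIR10.1 assembly, while the table itself gives loci of TAIR10 with no coordinates. Capitals mark ACGTG and also TTGAC, which is the core of the WRKY binding W-box, where either is read on this strand or, as its reverse complement, on the other.
BSMT1 (chr3:3614171-3614420, plus strand): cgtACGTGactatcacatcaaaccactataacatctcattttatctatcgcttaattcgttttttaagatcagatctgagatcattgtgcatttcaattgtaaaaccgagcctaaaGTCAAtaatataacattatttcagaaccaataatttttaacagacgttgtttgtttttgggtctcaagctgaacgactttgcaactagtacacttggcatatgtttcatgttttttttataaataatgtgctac
VSP1 (chr5:8509202-8509451, minus strand): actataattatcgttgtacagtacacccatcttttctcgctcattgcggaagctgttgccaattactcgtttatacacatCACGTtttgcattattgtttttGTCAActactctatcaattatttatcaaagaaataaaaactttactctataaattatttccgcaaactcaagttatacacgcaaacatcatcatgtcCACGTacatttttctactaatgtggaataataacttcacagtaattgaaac
SAG13 (chr2:12600664-12600913, plus strand): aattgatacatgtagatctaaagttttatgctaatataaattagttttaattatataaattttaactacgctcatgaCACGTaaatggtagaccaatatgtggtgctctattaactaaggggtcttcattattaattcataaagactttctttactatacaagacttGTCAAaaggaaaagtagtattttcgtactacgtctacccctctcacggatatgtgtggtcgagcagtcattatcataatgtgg
ST2A (chr5:2176447-2176696, minus strand): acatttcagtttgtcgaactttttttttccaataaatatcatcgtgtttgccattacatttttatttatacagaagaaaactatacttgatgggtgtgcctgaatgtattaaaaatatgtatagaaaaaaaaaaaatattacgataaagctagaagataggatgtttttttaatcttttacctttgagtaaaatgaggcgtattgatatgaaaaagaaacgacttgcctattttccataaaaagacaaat

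VSP1 holds 2 copies of the ABRE core, BSMT1 and SAG13 hold 1 each, and each of these 3 holds 1 copy of the W-box core. ST2A holds neither. The ABRE core ACGTG was found on either strand upstream of 53 of the 134 separated genes that were higher in hda9 and have a start in the reference (39.6%), upstream of 26 of 153 that were lower (17%), and upstream of 4197 of all 17969 genes tested (23.4%). The W-box core was found upstream of 53.7% of the higher, 53.6% of the lower and 44.8% of all. The G-box, spelled CACGTG, contains the ABRE core and was found upstream of 6.72% of the higher, 5.88% of the lower and 7.49% of all. By list, the ABRE core was upstream of 47.1% of the jasmonate induced genes and 33.3% of the senescence markers. It was upstream of 42.3% of the rapid stress and touch genes and 6.67% of the tested pollen genes. These last lists, described below, were lower in hda9, so the share did not follow direction across lists. These shares describe letters in a window and carry no test.

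On the lower side the 12 largest differences, among 117 protein-coding genes by the same rule, were ERF6, DIC2, AT1G07135, AT5G05250, ERF5, CAF1a, PGA4, RALFL9, AT5G51190, AT3G28750, HEI10 and AT3G07820. ERF6, PGA4, RALFL9, AT3G28750, HEI10 and AT3G07820 were under 1 FPKM in both hda9 libraries and passed the filter only through pwr. The values of all 12 are a description. ERF6, ERF5, AT5G51190, CAF1a and DIC2 are on a list of rapid stress and touch genes, and PGA4 and RALFL9 are on a list of pollen genes, both described next.

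ERF6, an ethylene response factor whose transcript rises quickly after a stress, had 0.47 and 0.66 FPKM in hda9 against 30.4 and 20.7 in pwr, and 1.94 and 4.56 in WT. Its log2 difference was -4.06 ± 0.33 (adjusted p = 0.0718 in limma). ERF5, its close relative, had 1.4 and 1.53 FPKM in hda9 against 23.8 and 23.8 in pwr (-3.33 ± 0.28). In both genes both pwr libraries stood above both WT libraries and both hda9 libraries below both of them.

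AT5G51190, a further gene of this DNA-binding family (ERF105), had 2.49 and 3.17 FPKM in hda9 against 30.1 and 43.0 in pwr (-3.28). CAF1a, a deadenylase that shortens mRNA tails, had 5.46 and 16.1 FPKM in hda9 against 81.6 and 134 in pwr (-3.33). DIC2, a dicarboxylate carrier of mitochondria, had 2.05 and 6.70 FPKM in hda9 against 53.6 and 69.0 in pwr (-3.67). In each of these genes the groups were far apart. AT1G07135, a glycine-rich protein, had 1.78 and 6.95 FPKM in hda9 against 55.2 and 55.4 in pwr (-3.58). AT5G05250, an uncharacterized protein, had 19.1 and 9.57 FPKM in hda9 against 129 and 192 in pwr (-3.44).

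A list of 26 genes of rapid stress and touch responses was also written after the values were seen, and it is given as a description. ERF6, ERF5, AT5G51190, CAF1a and DIC2 were picked by the naming rule, so their calls were fixed by that rule. ERF6 also passed the filter only through pwr. Of the 26 genes, 13 were called lower in hda9 (2.52% of all genes tested), 0 were called higher, and the median was -1.35. At 19 of the 26 both hda9 libraries were below both pwr libraries, as at 20.2% of all genes. The list had 21 called lower without hda9 replicate 2, 11 without hda9 replicate 1 with a median of -0.77, 7 without pwr replicate 1, 11 without pwr replicate 2 and 9 in the fit of the 3 genotypes. Further called members were ERF104 (4.85 and 11.7 FPKM in hda9 against 50.2 and 46.8 in pwr), ORA47 (1.08 and 3.69 in hda9 against 12.7 and 31.3 in pwr) and WRKY40 (3.78 and 11.9 in hda9 against 34.6 and 30.7 in pwr). ZAT10, CAF1b, WRKY33, TCH4 and SZF1 were called with smaller differences, between -0.90 and -1.95. All 5 lost their call without pwr replicate 1, all but WRKY33 also without pwr replicate 2, and WRKY33 and TCH4 also without hda9 replicate 1. The list median was -2.33 and -1.73 for hda9 replicate 1 minus each pwr library, and -1.06 and -0.53 for hda9 replicate 2. The list summed to 395 and 954 FPKM in hda9, to 1733 and 1497 in pwr, and to 410.1 and 1460.4 in WT. WT replicate 1 was thus close to hda9 replicate 1, and WT replicate 2 to pwr replicate 2.

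The upstream sequences of ERF6 and WRKY53 are given next, as the genes of this side that stand closest to senescence and stress signalling, with the same capitals.
ERF6 (chr4:9754162-9754411, minus strand): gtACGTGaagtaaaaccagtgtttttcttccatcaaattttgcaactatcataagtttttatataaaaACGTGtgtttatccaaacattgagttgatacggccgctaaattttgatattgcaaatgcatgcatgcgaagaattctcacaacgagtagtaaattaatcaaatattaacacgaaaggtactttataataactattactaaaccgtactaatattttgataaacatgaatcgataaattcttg
WRKY53 (chr4:12393983-12394232, minus strand): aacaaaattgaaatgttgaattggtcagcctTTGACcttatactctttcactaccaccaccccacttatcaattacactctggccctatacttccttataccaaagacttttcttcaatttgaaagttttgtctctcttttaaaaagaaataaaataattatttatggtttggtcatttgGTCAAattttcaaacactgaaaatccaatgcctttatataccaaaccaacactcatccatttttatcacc

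ERF6 holds 2 copies of the ABRE core and none of the W-box core in this window, and WRKY53 holds 2 copies of the W-box core and none of the ABRE core. Neither holds the G-box. Of the other windows read on this side, ERF5 and CAF1a hold 1 copy of the W-box core and none of the ABRE core, and DIC2 holds 2 and 1.

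Genes known from pollen were also lower in hda9. AGP23, an arabinogalactan protein gene known from pollen, was listed at 0 in both hda9 libraries and had 24.4 and 29.1 FPKM in pwr, with 3.27 and 12.6 in WT. Its log2 difference on the scale of FPKM + 1 was -4.79, with an adjusted p of 0.0398 in limma. AGP23 passed the filter on FPKM only through pwr and had no spread in hda9, so these values are a description. PGA4, a polygalacturonase, had 0.64 and 0.38 FPKM in hda9 against 12.2 and 15.5 in pwr (-3.29). RALFL9, a small signalling peptide of the RALF family, had 0.19 and 0.92 FPKM in hda9 against 12.3 and 15.4 in pwr (-3.29). AT3G07820, of the pectin lyase-like family, had 0.32 and 0.47 FPKM in hda9 against 10.7 and 14 in pwr (-3.25).

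A list of 30 genes known from pollen was written after these were seen. A mean of 1 FPKM was reached by 19 of them in pwr and by 2 in hda9, so most of the 15 that were tested passed the filter through pwr and had to differ, and the list is given over all 30 members. They summed to 10.2 and 9.01 FPKM in hda9, against 131 and 164 in pwr, and 15.2 and 65.0 in WT. Both hda9 libraries were below both pwr libraries at 25 of the 30 genes, as at 20.2% of all genes tested, and above both at 0. ANX1, a receptor-like kinase, overlapped, with 1.77 and 1.47 FPKM in hda9 against 1.74 and 1.97 in pwr. The sperm cell genes DUO1, HAP2 and MGH3 had at most 0.19 FPKM in any of the 4 libraries. BCP1, VGD1 and SKS13 had 0.20 to 0.91 FPKM in hda9, against 8.63 to 16.4 in pwr. The summed level also differed between the WT libraries, the flower markers were low in all 4 libraries of hda9 and pwr, and the part of pollen in the other differences was not tested.

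**Figure D4:**
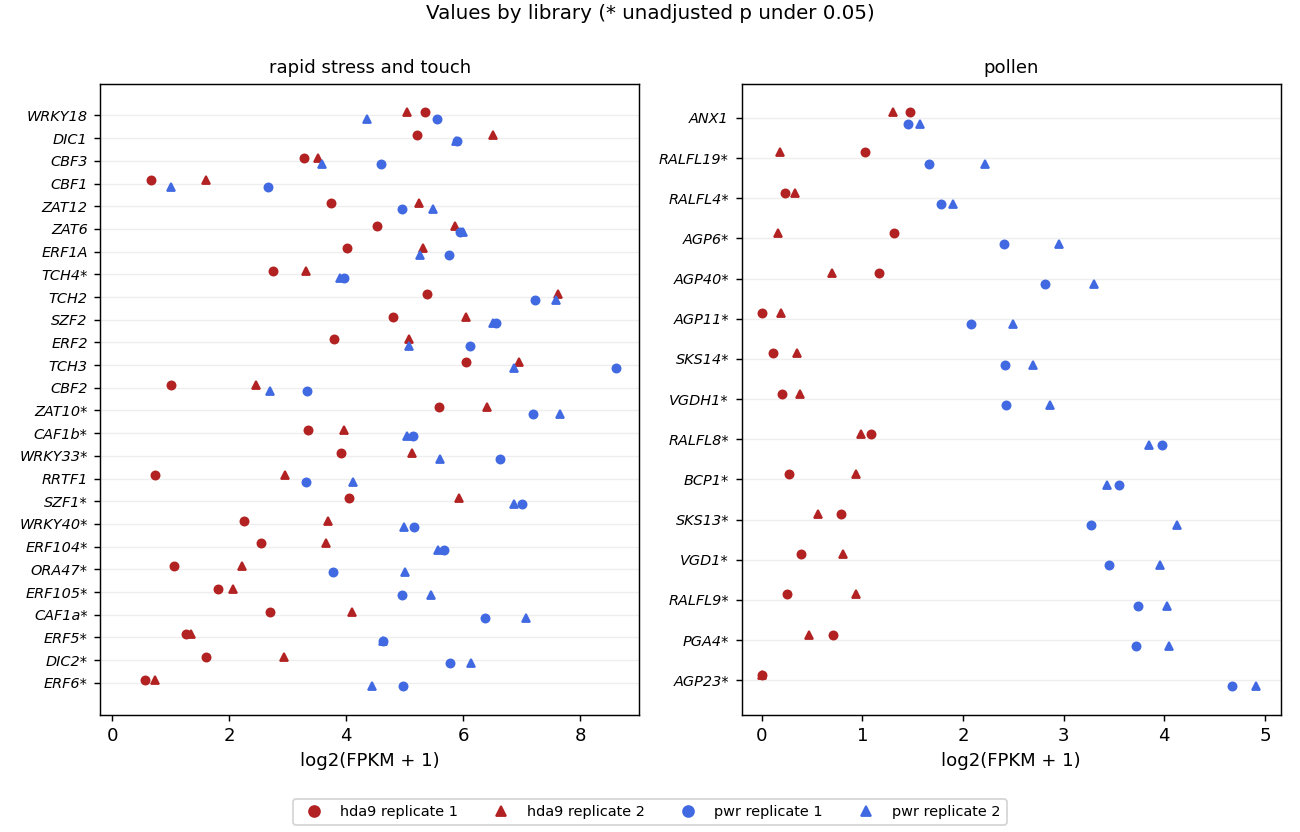
log2(FPKM + 1) of the 26 genes of rapid stress and touch and of the 15 tested pollen genes, ordered by their difference, in the 4 libraries (red hda9, blue pwr, circles replicate 1, triangles replicate 2, asterisks for an unadjusted p under 0.05). Both lists were written after the values were seen, and most of the pollen genes were tested only because they are high in pwr.

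HEI10, a RING protein of meiotic crossover sites, had 0.94 and 0.62 FPKM in hda9 against 14.8 and 17.1 in pwr, and 3.64 and 2.1 in WT, a log2 difference of -3.26 ± 0.31 (adjusted p = 0.114). Its neighbour MRD1 had 0.16 and 0.34 FPKM in hda9 against 6.37 and 7.43 in pwr (-2.66). In TAIR10.1 MRD1 lies on chromosome 1 from 19963047 to 19964712 and HEI10 from 19963267 to 19966952, so the genes overlap and reads may have been shared between them. AT3G28750, an uncharacterized protein, had 0.70 and 0.76 FPKM in hda9 against 13.5 and 17.7 in pwr (-3.26).

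The study names 11 HDA9 targets with a possible or known role in senescence, which are listed here as negative regulators. Of these, 2 were called higher in hda9 (18.2%, against 2.63% of all genes) and 0 lower, with a median of 0.45. Without hda9 replicate 1, 4 were called higher, all 11 lay above pwr and the median was 0.78, and without hda9 replicate 2, 1 was higher, 1 was lower and the median was 0.27. They were chosen by the study on these samples, so their direction is not independent evidence. ATG13, a component of autophagy, had 47.5 and 65.8 FPKM in hda9 against 30.7 and 24.5 in pwr (1.0). CAT1, a catalase, had 96.4 and 74.7 FPKM in hda9 against 36.5 and 51.1 in pwr (0.96). ATG13 was called only in the fit of 4 libraries and without hda9 replicate 1, and CAT1 only in the fit of 4 libraries and without hda9 replicate 2, among the fits that leave out a library. The other 9 (APG9, ATG2, ATG8E, NPX1, PLL5, AFP2, TMAC2, BIK1 and WRKY57) had differences from -0.45 to 0.79.

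Of 12 anthocyanin genes 2 were called higher (2.63% of all genes tested) and 0 lower, with a median of 0.99. Without pwr replicate 1, 8 of the 12 were called higher, and 0 were in the fit of the 3 genotypes or without any of the other 3 libraries. DFR, a reductase of the pathway, had 344 and 394 FPKM in hda9 against 179 and 73.1 in pwr (1.68). GSTF12, which carries anthocyanin to the vacuole, had 324 and 309 FPKM in hda9 against 177 and 86.5 in pwr (1.35). The list median depended on the pwr library, with values of 0.29 and 0.61 against pwr replicate 1 and 1.67 and 1.73 against pwr replicate 2. Neither gene was called without hda9 replicate 1, hda9 replicate 2 or pwr replicate 2, where the differences were 1.77, 1.58 and 1.04 for DFR and 1.31, 1.38 and 0.83 for GSTF12.

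Of 21 abscisic acid response genes 0 were called higher and 1 lower, and the list median was 0.02 in the fit of 4 libraries, -0.46 without hda9 replicate 2 and 0.60 without hda9 replicate 1. Without hda9 replicate 2, 8 were called lower and 0 higher, and without hda9 replicate 1, 3 were called higher and 1 lower. The gene called in the fit of 4 libraries was COR15B, a cold-regulated chloroplast protein, with 53.0 and 76.5 FPKM in hda9 against 127 and 151 in pwr (-1.11), and it was not called without either pwr library. Of 18 salicylic acid and defense genes, 8 flowering genes with miR172 targets and 11 clock genes, 0 were called in limma at an unadjusted or an adjusted p. Without pwr replicate 2, 7 salicylic acid genes were called lower and all 18 lay below pwr, and without pwr replicate 1, 1 was called higher. Without hda9 replicate 2, 4 clock genes were called lower, and without hda9 replicate 1, 1 flowering gene was called higher. The salicylic acid list followed the pwr libraries, with medians of -1.44 and -1.07 against pwr replicate 1 and 0.51 and 0.61 against pwr replicate 2. PR1, its classical marker, had 9.89 and 14.1 FPKM in hda9 against 96.3 and 8.64 in pwr.

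**Figure D5:**
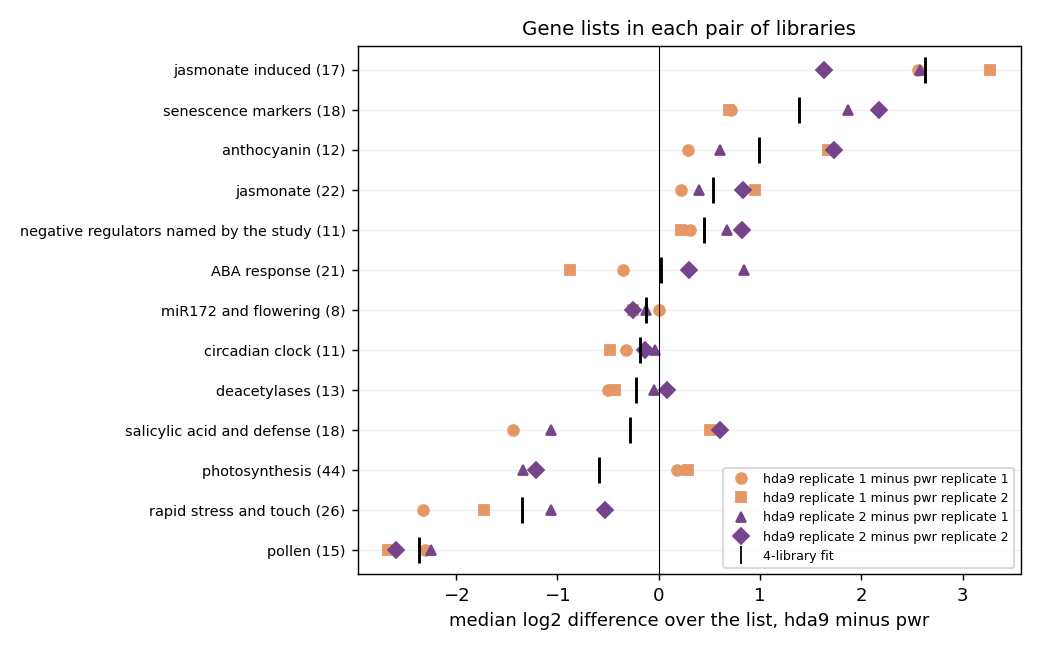
Median log2 difference over the tested genes of each list (number in brackets) for the 4 pairs of an hda9 and a pwr library and for the fit of 4 libraries. Orange symbols use hda9 replicate 1, purple symbols hda9 replicate 2. The senescence and photosynthesis lists split by hda9 library, the anthocyanin and salicylic acid lists by pwr library, and the pollen list, of which only the tested members are drawn, by neither. The lists jasmonate induced, rapid stress and touch, and pollen were written after the values were seen.

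Besides AGP23, the genes with an adjusted p under 0.05 in limma were 5 short loci that were listed at 0 in both libraries of a genotype. MIR830, which encodes a microRNA precursor, was listed at 0 in both hda9 libraries, at 57.6 and 53.5 FPKM in pwr, and at 0 and 59.4 FPKM in WT (adjusted p = 0.0228 in limma). MIR775, a further precursor, was listed at 0 in both hda9 libraries, at 37.1 and 51.6 FPKM in pwr, and at 46.0 and 19.1 FPKM in WT (adjusted p = 0.0389 in limma). MIR830 was thus also at 0 in 1 WT library. The tRNA gene AT2G07763 was listed at 0 in hda9 and at 284 and 527 FPKM in pwr, and the unnamed AT4G23271 at 0 in hda9 and at 41.5 and 77.1 in pwr. In WT AT2G07763 was listed at 687 and 293 FPKM and AT4G23271 at 0 and 0. The pseudogene AT4G00413 was the reverse, at 32.9 and 54.9 FPKM in hda9 and 0 in pwr, with 0 and 19.1 in WT. Each of the 5 loci passed the filter on FPKM only through the genotype where it was not at 0. The loci span 71 to 195 nucleotides, where few fragments make a large FPKM and a 0 can be a failed estimate, and precursor levels are not levels of mature microRNA. The study describes these libraries as made from mRNA.

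The mature microRNAs of the first pair are shown to identify them, from TAIR10.1 annotation by RefSeq, with the seed (bases 2 to 8) in capitals. The 3 seeds differ from each other.
miR830-5p (chr1:4820473-4820494, minus strand): uCUUCUCCaaauaguuuagguu
miR830-3p (chr1:4820406-4820426, minus strand): uAACUAUUuugagaagaagug
miR775 (chr1:29422546-29422565, plus strand): uUCGAUGUcuagcagugcca

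In all, 13 genes tested were listed at 0 in both hda9 libraries and above 0 in both pwr libraries, 7 of them under 300 nucleotides long. The reverse held for 11 genes, 6 of them under 300 nucleotides. Besides those already given, LCR72, a cysteine-rich peptide gene, was among the first (0 and 0 FPKM in hda9, 3.97 and 3.45 in pwr) and AT5G40180 among the second (4.29 and 6.24 in hda9, 0 and 0 in pwr).

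The separated genes were compared on span and gene type, which the rule did not use, and on level, which the rule and the filter use. Those lower in hda9 were shorter, with a median span of 1219 nucleotides against 1849.5 for those higher and 2374 for all genes tested, and 91.6%, 93.3% and 96.3% were protein-coding. The genes lower in hda9 had a median of 0.65 FPKM in hda9 and 9.25 FPKM in pwr. Many of them were thus under 1 FPKM in hda9 and were tested only through pwr. The genes higher in hda9 had a median of 41.0 FPKM in hda9 and 7.56 FPKM in pwr. Over all genes tested the medians were 15.05 FPKM in pwr and 14.66 FPKM in hda9.

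The WT library of the set with steps was placed beside each separated gene. For the 135 genes higher in hda9, WT replicate 2 was at or beyond the nearer hda9 library in 53, between the mutants in 66 and at or beyond the nearer pwr library in 16. For the 154 genes lower in hda9 it was on the hda9 side in 14, between in 116 and on the pwr side in 24. With WT replicate 1 the numbers were 19, 37 and 79 for the first and 64, 76 and 14 for the second. The 2 WT libraries placed these genes differently.

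The study's own lists of genes changed against WT in both mutants were looked up last, and they were chosen on these libraries. Choosing genes changed the same way in both mutants favours a small difference between the mutants. Few calls in these lists are therefore partly built in. Of all genes tested, 2.63% were called higher and 2.52% lower. Of the 277 genes listed as upregulated in both mutants 1 was called higher in hda9 than in pwr (0.361%) and 0 lower, with a median of -0.15, which was 0.20 within the set with steps and -0.42 without hda9 replicate 2. Of the 321 tested genes listed as downregulated in both, 14 were called higher (4.36%) and 7 lower (2.18%), with a median of 0.01, which was -0.25 within the set with steps and 0.38 without hda9 replicate 2. The sign of both medians thus turned with the hda9 library. Of the 222 genes listed as bound by HDA9 and upregulated in hda9, 31 (14%) were called higher in hda9 than in pwr. In that list 0 were called lower, and the median was 0.21. That median was 0.61 within the set with steps and -0.18 without hda9 replicate 2. Of the 222 genes, 201 lay above pwr and 21 below within the set with steps. Without hda9 replicate 2, 96 lay above and 126 below. The study chose this list for higher values in these hda9 libraries, so its direction is not independent evidence.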

How the data were processed

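Total RNA was extracted from early senescent leaves and mRNA was sequenced in 2 libraries each of hda9, pwr and WT. The authors deposited 1 table of FPKM per gene, and the submitters' processing notes name Bowtie2 2.1.0, Tophat 2.0.8b, Cufflinks 2.1.1 and TAIR10. The study lists mapped reads per library, which were not used here. The table itself holds no read totals, and no counting interval is given. Large FPKM of short loci rest on few fragments. The table's values are in 6 columns, and all were mapped to a sample.

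hda9 was compared with pwr in limma 3.58.1 (R 4.3.3) with a mean-variance trend on log2(FPKM + 1), over the genes whose FPKM averaged 1 or more in the 4 libraries. A fold change on this scale understates that of low genes. Calls use an unadjusted p under 0.05, as in the study, with Benjamini-Hochberg adjusted values beside it. The p-values measure only the spread between these libraries. Simulated data with 200 altered genes were used to test the script. Figures and summaries were made in Python 3.11.15.

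Named genes are HDA9, PWR and the complex genes, genes with an adjusted p under 0.05, the 12 largest called differences in each direction among nuclear protein-coding genes above 0 in all 4 libraries and separated by at least 2-fold, called list members, the 11 negative regulators, and up to 3 genes per side listed at 0 in both libraries of a genotype. Members and lists were chosen with earlier results of these data known, and 3 lists (jasmonate induced, rapid stress and touch, pollen) were written after the values of this comparison were seen. Uncalled members are given where they complete a list. Sequences and coordinates are from RefSeq's TAIR10.1, in which 32820 of 33278 loci were matched. Young leaves and ChIP-seq were not analysed here. Alternatives were another pseudocount, other filters and scalings, a replicate block, a fit of the 3 genotypes and each library left out. The upstream window of 1 further gene is not reported here.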

Additional observations from a re-analysis of the deposited data

How the results depend on the processing

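Of the 929 genes called, 6 had an adjusted p under 0.05, 1 of the 475 higher in hda9 and 5 of the 454 lower. Without a filter on FPKM 1439 genes were called, 821 of them lower, and with a mean FPKM of at least 5, 292 were lower. Leaving out each library in turn gave 546 to 2161 calls, 252 to 992 higher and 277 to 1291 lower, where a lone library is assumed to vary like the other genotype's. Separated genes then numbered 368 to 665 on the higher and 334 to 756 on the lower side, since 3 libraries have less to satisfy. With 1.5-fold in place of 2-fold they numbered 392 and 353, and 77 on the lower side with a mean FPKM of at least 5. Within the set with steps 1630 genes were higher without a filter, a setting chosen after seeing the data. Deviations of same-numbered libraries correlated at -0.0101. The hda9 deviation also holds the difference between the library sets, so this value cannot decide whether replicate numbers pair the libraries. The replicate block gave 996 calls, 525 higher and 471 lower. CAT1, TCH4 and WRKY6 were not called with the block. HDA9 stayed lower, from -2.44 to -1.45, and PWR higher, from 1.98 to 2.81, past the threshold under each alternative run. Of the 72 genes called and named, 54 passed it in each alternative that keeps 4 or more libraries, and 17 were lost in the fit of the 3 genotypes. Counting error was not computed from FPKM, and each genotype has 2 libraries.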

Other observations

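Groups of genes that share words in their annotation were counted among the separated genes after the values were seen, so the counts are a description, beside 0.749% of all genes tested on the higher side and 0.854% on the lower. Of 12 metallothionein and ferritin genes 3 were separated and higher in hda9. MT1B, a metallothionein, had 122 and 247 FPKM in hda9 against 20.4 and 37.9 in pwr, and FER1, an iron storage protein, had 117 and 263 FPKM in hda9 against 51.5 and 50.3 in pwr. NAS3, a nicotianamine synthase, had 289 and 475 FPKM in hda9 against 46.1 and 41.2 in pwr. Of 72 carriers of amino acids, nitrate or sugars 6 were separated and higher, and 1 was lower. NIA1, a nitrate reductase, had 133 and 216 FPKM in hda9 against 48.1 and 29.1 in pwr. Of 25 genes with the chosen phosphatase or SPX words 3 were separated and higher, and such words need not cover a whole family. Among the 3 was PAP8, with 39.2 and 42.8 FPKM in hda9 against 4.87 and 13.2 in pwr. In these genes both hda9 libraries were above both pwr libraries.

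By annotation words, 21 of 103 pectin genes were on the lower side and 3 on the higher side. On the lower side were also 6 of 14 genes annotated as RALF-like and 3 of 8 annotated with the words Toll-Interleukin-Resistance. The pectin and RALF-like groups share members with the pollen list, such as VGD1, RALFL8 and RALFL9. These counts are over tested genes only. VGD1 and RALFL9 were under 1 FPKM in both hda9 libraries and were tested only through pwr, so they had to be lower. The 3 genes annotated with Toll-Interleukin-Resistance are the neighbours AT1G72910, AT1G72920 and AT1G72940 on chromosome 1. AT1G72920 had 2.64 and 1.57 FPKM in hda9 against 17.4 and 29.6 in pwr, and 3.70 and 2.6 in WT. AT1G72910 had 10.6 and 6.49 FPKM in hda9 against 52.2 and 47.2 in pwr, and 21.3 and 10.9 in WT. In both genes the pwr libraries stood above the other 4. CYP707A3, an abscisic acid hydroxylase, had 1.06 and 1.54 FPKM in hda9 against 10.9 and 11.5 in pwr, and 1.41 and 4.2 in WT.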
